A study of Mus musculus with 19 samples.

Results

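Mitochondrial ribosomal protein genes were examined in the liver of wild-type mice under 2 diets and 2 procedures. The members were the genes whose symbol is Mrpl or Mrps followed by a number and at most 1 letter, with pseudogenes left out. The symbols picked 78 genes out of 52110 named entries, and all 78 reached the mean level of 1 FPKM (a fragment count divided by gene length in kilobases and by the fragments sequenced) that was required for testing, as did 10577 genes in all. The liver RNA came from WT mice in each group. NC sham mice (n = 5) ate normal chow and had a sham procedure, and NC RIC mice (n = 5) ate the same chow and underwent remote limb ischemic conditioning, in which blood flow to a limb is stopped and restored. CDAHFD sham mice (n = 5) and CDAHFD RIC mice (n = 4) ate a choline-deficient, amino acid-defined, high-fat diet, which is used to produce steatohepatitis, with the sham procedure or with conditioning. The sources used here do not state strain, age, feeding time or number of conditioning sessions. Whether every replicate was its own animal is not stated, and p-values therefore refer only to the variation seen among these samples.

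The mitochondrial ribosome translates the few messages of the mitochondrial genome, which encode core subunits of the respiratory chain and of ATP synthase. Its proteins are all encoded in the nucleus, made in the cytosol and imported, and they assemble with mitochondrial ribosomal RNA into a small subunit (Mrps genes), which reads the message, and a large subunit (Mrpl genes), which joins the amino acids. Some members descend from bacterial ribosomal proteins, while others are found only in mitochondria. Hepatocytes are rich in mitochondria, and loss of individual mitochondrial ribosomal proteins is known to cause respiratory chain deficiency.

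A rough estimate gave libraries of 15.9 to 26.4 M reads and 57.9 reads for the least covered member value. The check of that estimate did not recover whole reads, so the true coverage is not known. The summed FPKM of all named genes ran from 481000 to 498000 in NC sham and from 491000 to 511000 in NC RIC, and on CDAHFD from 440000 to 494000 in sham and from 418000 to 443000 in conditioned mice. Hepatocyte markers were high in every sample, Alb at 24700 to 49000 FPKM by group mean, and markers of skeletal muscle and adipose tissue summed to at most 0.37 and 0.0312 FPKM. The median of all tested genes was 0.45 higher in CDAHFD sham than in NC sham on the log2(FPKM + 1) scale used for all differences here. Median-ratio scaling, which sets the typical gene equal between samples, brought that shift to 0.00, and differences below are therefore given with both scales where they disagree. CDAHFD sham samples 2 and 5 had been seen to stand apart in earlier results of these data, and counts are also given without them.

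Promoters of 69 of the 78 members were found in the RefSeq table (GRCm38.p6), each 300 bases from 250 before to 50 after the start. These windows were searched on both strands for GCGC followed by any base and TGCGC, the core letters bound by nuclear respiratory factor 1 (NRF1), and for CCGGAAG, the letters bound by ETS factors such as GABP. Both factors are known regulators of nuclear genes for mitochondrial proteins. The NRF1 letters stood in 13 member promoters (18.8%), against 5.19% of 27025 genes with a promoter and 12.1% of the 7494 tested genes among them. The ETS letters stood in 26 member promoters (37.7%), against 9.93% and 21.8%. At least 1 of the motifs was present in 35 members (50.7%), against 31.0% of the tested genes. Related groups had similar shares for at least 1 motif, while the shares of the single motifs were less alike. At least 1 motif stood in 47.5% of the cytosolic ribosomal protein genes with a promoter and in 44.6% of the nuclear respiratory chain genes, the NRF1 letters in 8.47% and 26.2%, and the ETS letters in 40.7% and 24.6%. The windows of 4 members are printed as examples with NRF1 letters, with ETS letters, with both and with neither, from members whose changes are described below: Mrpl45 and Mrpl52 rose on the diet on both scales, and Mrpl57 and Mrps7 fell after conditioning. Capitals mark the matched letters on either strand.
Mrpl45 (chr11:97315466-97315765, plus strand): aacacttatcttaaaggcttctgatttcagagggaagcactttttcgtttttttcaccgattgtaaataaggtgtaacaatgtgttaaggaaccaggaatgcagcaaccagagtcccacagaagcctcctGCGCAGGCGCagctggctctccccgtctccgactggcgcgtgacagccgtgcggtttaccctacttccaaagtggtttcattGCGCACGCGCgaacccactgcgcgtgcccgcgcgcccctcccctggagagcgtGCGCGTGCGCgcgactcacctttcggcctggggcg
Mrpl52 (chr14:54426659-54426958, plus strand): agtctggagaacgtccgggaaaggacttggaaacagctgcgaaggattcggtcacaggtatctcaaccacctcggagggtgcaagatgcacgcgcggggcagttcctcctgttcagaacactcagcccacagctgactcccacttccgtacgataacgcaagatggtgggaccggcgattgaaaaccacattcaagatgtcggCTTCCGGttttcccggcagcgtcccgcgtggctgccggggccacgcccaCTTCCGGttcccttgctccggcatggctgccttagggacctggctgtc
Mrpl57 (chr14:57825989-57826288, plus strand): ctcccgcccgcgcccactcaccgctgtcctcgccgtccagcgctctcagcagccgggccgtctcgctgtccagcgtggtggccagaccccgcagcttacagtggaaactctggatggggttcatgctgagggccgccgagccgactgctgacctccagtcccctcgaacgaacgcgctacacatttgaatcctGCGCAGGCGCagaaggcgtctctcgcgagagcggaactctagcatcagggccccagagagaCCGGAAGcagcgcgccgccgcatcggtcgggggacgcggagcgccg
Mrps7 (chr11:115603890-115604189, plus strand): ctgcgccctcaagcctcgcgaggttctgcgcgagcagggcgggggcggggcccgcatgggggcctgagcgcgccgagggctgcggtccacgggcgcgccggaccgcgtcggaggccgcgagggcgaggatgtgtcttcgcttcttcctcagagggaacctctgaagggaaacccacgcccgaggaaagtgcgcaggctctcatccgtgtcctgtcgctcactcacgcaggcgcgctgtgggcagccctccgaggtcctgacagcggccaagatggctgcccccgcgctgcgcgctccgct
The Mrpl45 window held 3 NRF1 matches, the Mrpl52 window 2 ETS matches, the Mrpl57 window 1 of each, and the Mrps7 window had neither. A match describes the letters and is not evidence of a bound site. Members with at least 1 motif had a median diet difference of 0.57, and the 34 without had 0.62. After conditioning on CDAHFD these medians were -0.22 and -0.24, so the members with and without the letters lay close together in both comparisons.

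Levels of the members spanned from 2.2 FPKM for Mrpl23 to 66.2 for Mrpl12 as means over the 19 samples, with a median of 8.98. In NC sham liver Mrpl12, the stalk protein that helps to recruit translation factors, was the most abundant at 54.5 ± 3.56 FPKM (SD, n = 5). Next came Mrpl24 (30.7 ± 3.64), Mrpl18 (30.6 ± 5.03), which is related to the bacterial protein that holds 5S RNA, Mrps21 (29.1 ± 9.09) and Mrpl27 (25.2 ± 4.4). The order among these 4 lay within their spread. The 5 lowest genes over all samples were Mrpl23, Mrpl19, Mrpl48, Mrps35 and Mrps26, at 2.2 to 2.69 FPKM. Level fell with annotated exonic length across the 78 members (Spearman -0.79, a description across genes). The gene lengths behind the deposited FPKM were not given, so long annotated exons may set part of the order between genes. The exonic length of Mrpl23 is 4883 bases and that of Mrpl34 is 607. The pseudogene Mrpl23-ps1 was listed at 5.85 FPKM in NC sham and 13.4 in CDAHFD sham, above its parent gene. Whether reads were divided between the copies was not tested.

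On CDAHFD the summed level of the members was higher. The sum was 772 ± 56 FPKM in NC sham (714 to 850) and 1201 ± 70.3 in CDAHFD sham (1099 to 1286), and the groups did not overlap. It made up 0.158% of all FPKM in NC sham and 0.255% in CDAHFD sham. By the deposited values 68 of 78 members rose and 0 fell (87.2% called higher), beside 63.9% of all tested genes called higher and 10.3% called lower. By unadjusted p under 0.05, 69 were higher and 0 lower, counted for the members only. Under median-ratio scaling 18 members were called higher and 15 lower, beside 30.5% of all genes in each direction, and quantile normalization gave 27 and 16. In 59 members all CDAHFD sham values were above all NC sham values and in 0 below, beside 52.4% and 6.91% of all genes. Of the 68 members called higher 23 had a negative difference after median-ratio scaling. The median member difference was 0.58 as deposited and 0.06 after median-ratio scaling, beside 0.45 and 0.00 for all tested genes. Without CDAHFD sham samples 2 and 5 the counts were 65 and 1. In bulk liver a change in the number of cells of a type and a change in RNA per cell cannot be told apart.

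**Figure D1:**
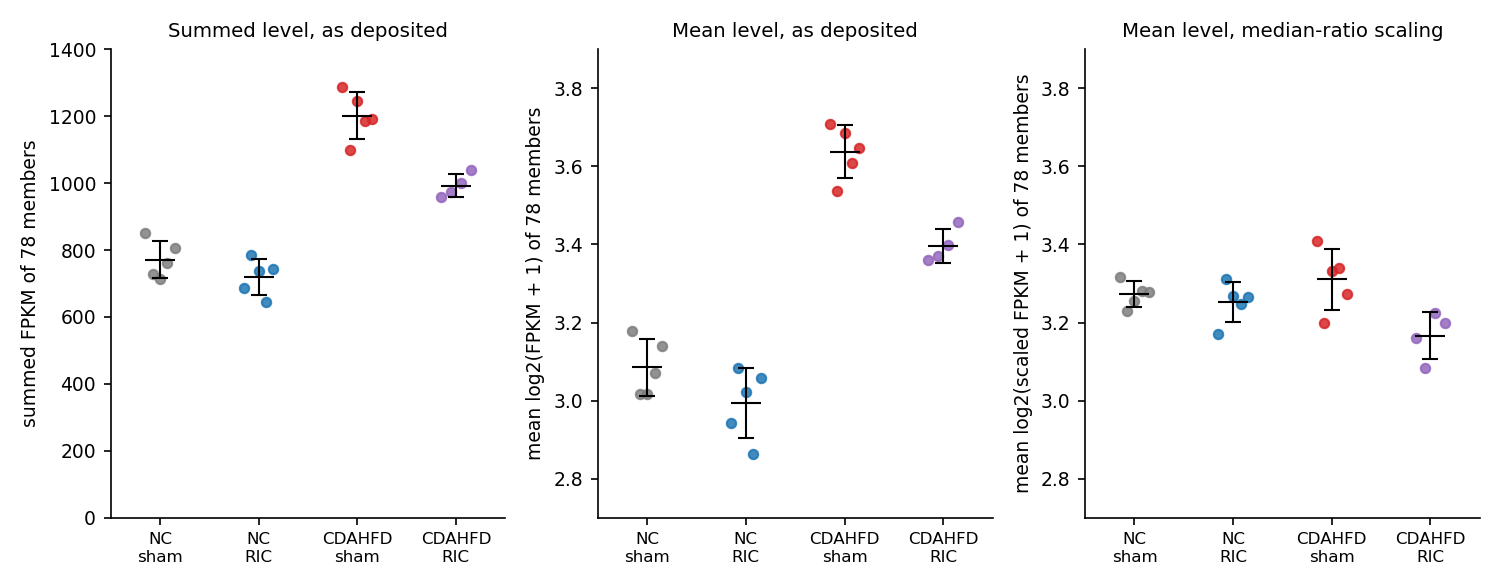
Level of the 78 members in each sample by group, as summed FPKM (left), as mean log2(FPKM + 1) (middle) and as mean log2 after median-ratio scaling (right); points are samples, bars mean and SD (n = 5, or 4 for CDAHFD RIC). The CDAHFD sham samples sum to 1099 to 1286 FPKM, above the 714 to 850 of NC sham, while after scaling their mean log2 is 3.31 against 3.27; axes of the middle and right panels do not start at 0.

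The 8 members with the largest diet difference included 4 large-subunit proteins found only in mitochondria or acquired there. Mrpl54 (chr10:81264713-81266934, minus strand, GENCODE vM21) stood first. It measured 20, 14.7, 13.4, 16.2 and 16.6 FPKM in the NC sham samples and 55.6, 37, 47.7, 45.2 and 38 in the CDAHFD sham samples. Each CDAHFD sham sample was above every NC sham sample, 2.76-fold higher by the mean. The difference was 1.41 (SE 0.115, adjusted p = 2.95e-09), which is 0.96 above the median of all genes, and 0.84 after median-ratio scaling (adjusted p = 4.12e-06).

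Mrpl52 measured 14.5, 11.7, 10.1, 11 and 13 FPKM in NC sham and 33.9, 22.3, 29.3, 26.9 and 21.5 in CDAHFD sham, again without overlap. Its difference was 1.08 (adjusted p = 1.92e-07), and 0.52 after median-ratio scaling (adjusted p = 5.78e-04). Mrpl45, a protein at the exit of the nascent chain that holds the ribosome to the inner membrane, measured 7.12, 6.29, 6.27, 7.48 and 7.34 FPKM in NC sham and 16.2, 11.9, 13.7, 14.8 and 12.9 in CDAHFD sham. Its lowest CDAHFD sham value was above its highest NC sham value. The difference was 0.91 (SE 0.0893, adjusted p = 3.51e-08), and 0.38 after scaling (adjusted p = 0.00126). Mrpl51 rose from 7.24 ± 0.568 to 15 ± 1.6 FPKM, a difference of 0.95 (adjusted p = 6.62e-08) and 0.42 after scaling.

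Among members with bacterial relatives, Mrps6, a small-subunit protein, measured 4.18, 3.27, 2.89, 3.04 and 3.01 FPKM in NC sham and 8.64, 5.17, 10.4, 7.84 and 8.22 in CDAHFD sham. Sample 2 was the lowest of the CDAHFD sham group and still above all NC sham samples. The difference was 1.06 (SE 0.13, adjusted p = 6.32e-07), and 0.57 after scaling (adjusted p = 5.11e-04). Part of the exons of Mrps6 (19.9%) overlap a same-strand gene, so some of its reads may belong to that gene. Mrpl2, related to a core bacterial protein beside the catalytic center, rose from 12.3 ± 1.41 to 26.7 ± 4.83 FPKM, 2.16-fold, with a difference of 1.04 (adjusted p = 1.79e-07) and 0.48 after scaling. Mrps21 rose from 29.1 ± 9.09 to 58.8 ± 7.42 FPKM as deposited (difference 1.04, SE 0.223, adjusted p = 3.54e-04), but did not pass after scaling (0.47, adjusted p = 0.0612). Mrpl16 measured 6.65 ± 1.23 and 12.3 ± 0.388 FPKM, with a difference of 0.81 (adjusted p = 3.27e-07) and 0.29 after scaling (adjusted p = 0.00345).

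In all, 15 members passed as higher under every alternative listed in the processing section in which they were tested. The share of all genes that did so was not counted, so the number does not tell the members apart from other genes. Under median-ratio scaling alone 23.1% of the members were called higher, beside 30.5% of all genes. The 15 members were Mrpl2, Mrpl4, Mrpl10, Mrpl16, Mrpl40, Mrpl43, Mrpl45, Mrpl51, Mrpl52, Mrpl54, Mrpl57, Mrps6, Mrps18b, Mrps26 and Mrps36. Mrps26, at 1.89 ± 0.207 FPKM in NC sham and 3.93 ± 0.339 in CDAHFD sham, had the least of these levels, and no CDAHFD sham sample was below 3.42. Mrps36 is named as a ribosomal protein but is known as a component of the ketoglutarate dehydrogenase complex. It rose from 3.09 ± 0.583 to 6.65 ± 0.77 FPKM (difference 0.91, adjusted p = 8.33e-07, and 0.43 after scaling). Pseudogenes of Mrps36 were also listed, and whether reads were divided between the copies was not tested. Another 5 members, Mrpl13, Mrpl30, Mrpl48, Mrps9 and Mrps14, were called higher as deposited and lower after median-ratio scaling. Leaving out 1 sample ended the call of 4 weaker members, namely Mrps25 (adjusted p up to 0.0976, without NC sham 1 or CDAHFD sham 1 or 3), Mrpl17 (up to 0.0602, without CDAHFD sham 1 or 3), Mrpl47 (up to 0.0781, without NC sham 3 or CDAHFD sham 5) and Mrps34 (up to 0.0627, without NC sham 1 or 5).

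The 10 members that did not pass as deposited were Mrpl9, Mrpl15, Mrpl24, Mrpl39, Mrpl53, Mrps10, Mrps22, Mrps24, Mrps27 and Mrps31. Mrpl24 measured 35.5, 28.8, 31.1, 25.8 and 32.1 FPKM in NC sham and 30.3, 25.8, 31.8, 31.9 and 29.9 in CDAHFD sham. The values of both groups overlapped almost entirely (difference -0.03, SE 0.0851, adjusted p = 0.76), so this gene lay 0.48 below the median of all genes. After median-ratio scaling it was called lower (-0.60, adjusted p = 7.04e-06). Part of its exons (26.3%) overlap Rrnad1 on the other strand, and strandedness of the libraries is not stated. Mrps31 measured 9.89 ± 0.685 and 10.2 ± 0.837 FPKM (difference 0.04, adjusted p = 0.631), and -0.49 after scaling. Mrpl9 measured 17.9 ± 1.35 and 16.9 ± 2.69 FPKM (difference -0.09, adjusted p = 0.354), and -0.64 after scaling (adjusted p = 2.15e-06). Mrps22, a subunit mutated in human respiratory chain disease, measured 5.64 ± 0.631 and 6.53 ± 0.747 FPKM (difference 0.18, adjusted p = 0.064), and -0.32 after scaling.

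**Figure D2:**
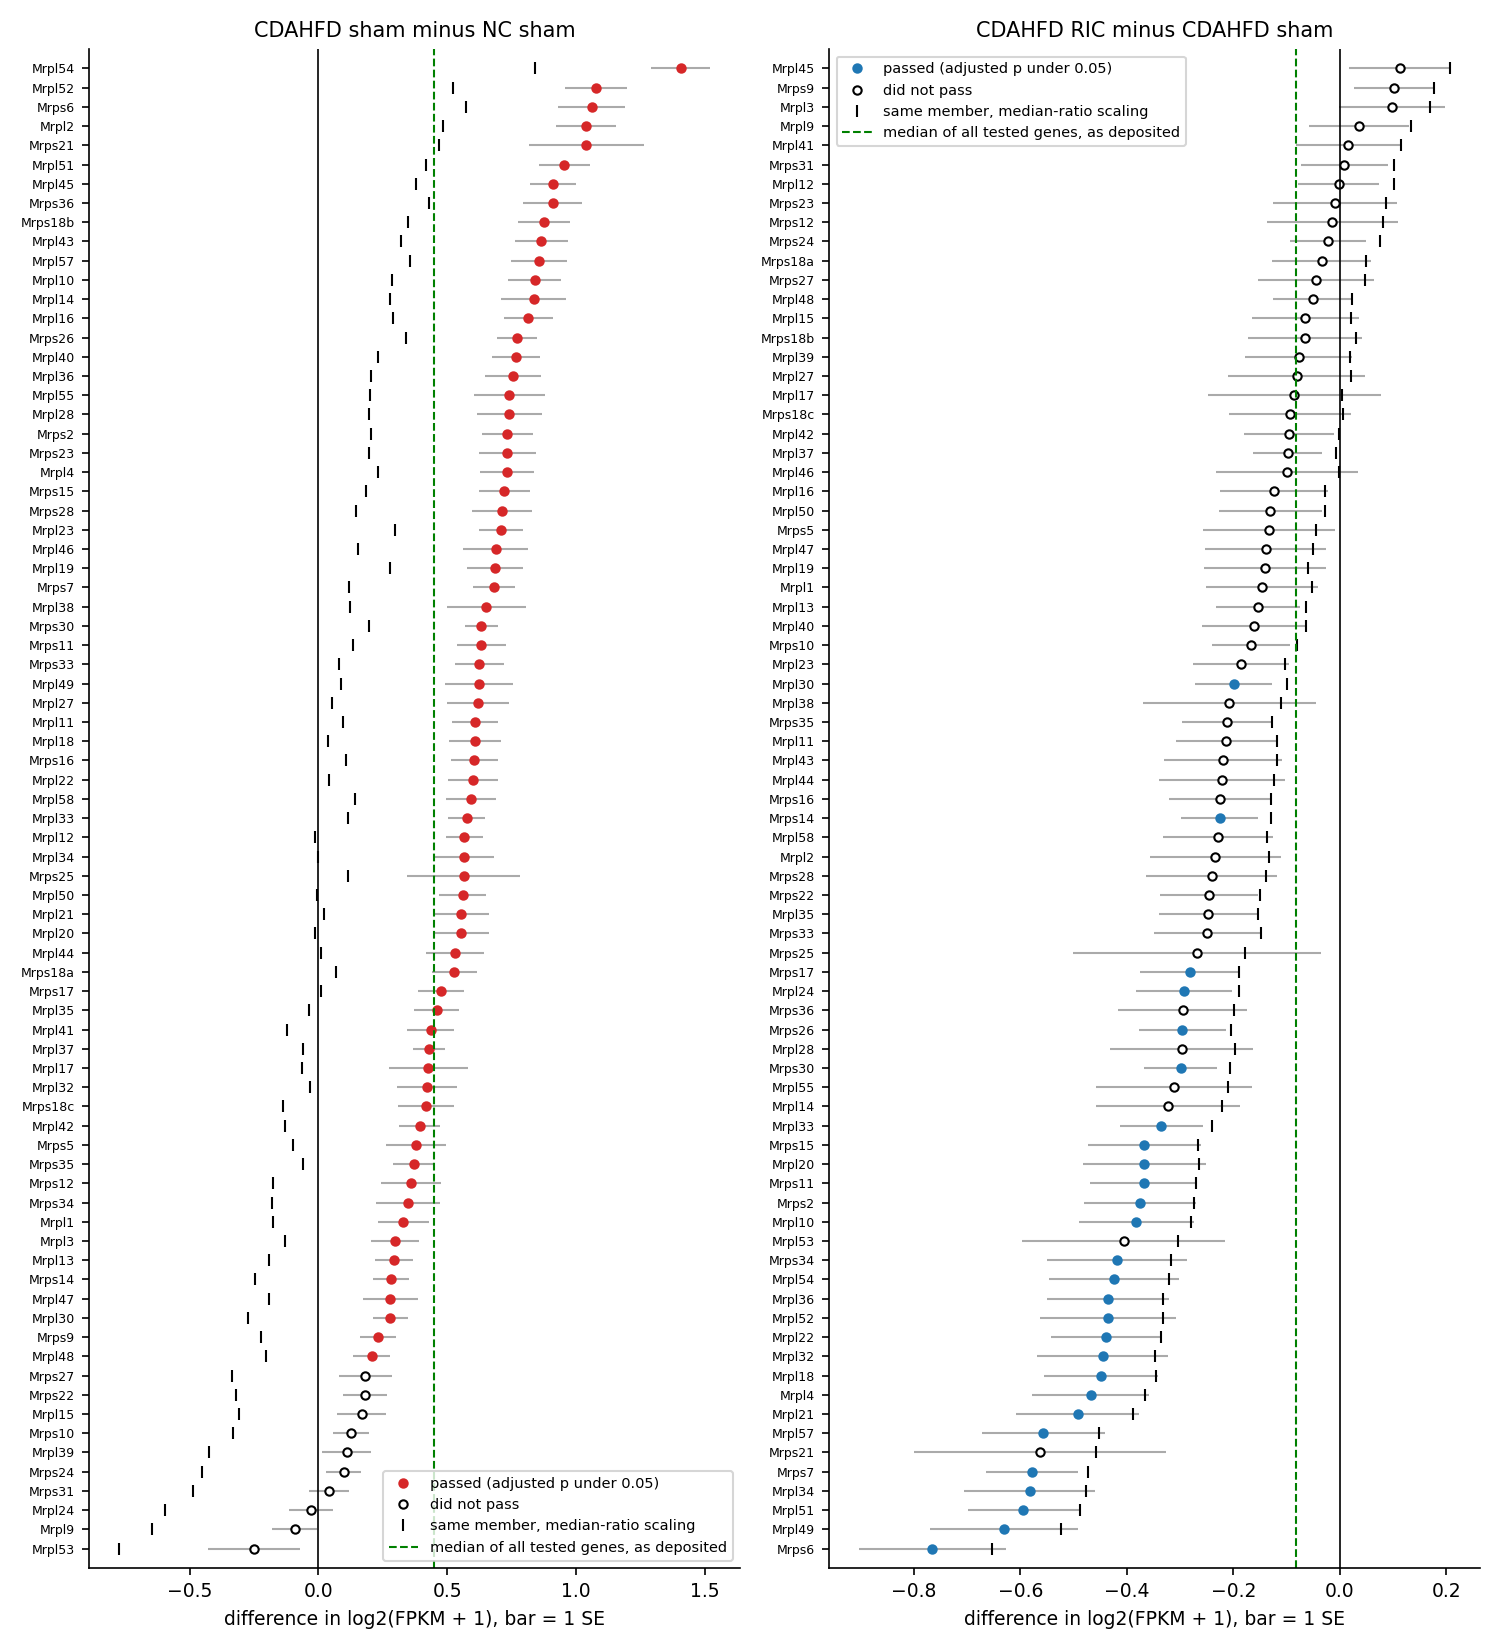
Difference of every member in log2(FPKM + 1), ordered, for CDAHFD sham minus NC sham (left) and CDAHFD RIC minus CDAHFD sham (right), which share the CDAHFD sham samples; filled points passed at adjusted p under 0.05, bars are 1 SE, ticks give the value after median-ratio scaling and the dashed line is the median of all tested genes. Mrpl54 leads on the left at 1.41 and Mrps6 has the most negative value on the right at -0.76.

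Conditioning of mice on CDAHFD went with lower levels of part of the members. The summed level was 992 ± 34.6 FPKM in CDAHFD RIC (959 to 1038, n = 4), below the 1099 to 1286 of CDAHFD sham. After median-ratio scaling the mean log2 level of the members overlapped, at 3.08 to 3.22 in CDAHFD RIC and 3.2 to 3.41 in CDAHFD sham. As deposited, 27 of 78 members fell and 0 rose (34.6% called lower), beside 18.6% of all tested genes lower and 8.72% higher. By unadjusted p under 0.05, 41 members were lower and 0 higher, again counted for the members only. The median member difference was -0.23, beside -0.08 for all genes, and 72 members had a negative difference. Under median-ratio scaling 17 members fell and 0 rose, beside 10.1% lower and 12.7% higher among all genes, and all 17 were among the 27. A common sum of FPKM in each sample left 13, and leaving out CDAHFD sham samples 2 and 5 gave 35. In 26 members all CDAHFD RIC values were below all CDAHFD sham values and in 0 above, beside 13.1% and 5.26% of all genes.

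Small-subunit proteins included the member with the smallest adjusted p. Mrps7 (chr11:115603925-115608036, plus strand), related to a bacterial protein that starts assembly of the head of the small subunit, measured 34.2, 25.6, 30.9, 28.3 and 31.6 FPKM in CDAHFD sham and 19.9, 20, 20.5 and 18.7 in CDAHFD RIC. The groups were well apart. As deposited, the conditioned values lay near the NC sham values of 17.3 to 19.9, which they partly overlapped, and above all NC RIC values. After median-ratio scaling the conditioned values lay below all NC sham values. The difference from CDAHFD sham was -0.58 (SE 0.0855, adjusted p = 1.84e-04), and -0.47 after median-ratio scaling (adjusted p = 5.16e-04).

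Mrps6 had the largest fall. Its CDAHFD RIC values were 4.15, 4.77, 4.24 and 3.79 FPKM, below each of the CDAHFD sham values of 5.17 to 10.4 given above, and the mean was 1.9-fold lower. The difference was -0.76 (SE 0.138, adjusted p = 9.13e-04), and -0.65 after scaling (adjusted p = 0.00199). Mrps30 measured 3.79 ± 0.145 FPKM in CDAHFD sham and 2.9 ± 0.0877 in CDAHFD RIC (difference -0.30, adjusted p = 0.00486). Despite its name it is a protein of the large subunit.

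In the large subunit Mrpl51 measured 17.3, 13.6, 16, 13.9 and 14.2 FPKM in CDAHFD sham and 8.4, 9, 10.1 and 10.9 in CDAHFD RIC, without overlap and 1.56-fold lower by the mean. The difference was -0.59 (SE 0.104, adjusted p = 7.35e-04), and -0.49 after scaling (adjusted p = 0.00139). Mrpl49 measured 15.5, 11.5, 15.5, 11.1 and 15 FPKM in CDAHFD sham and 9.16, 7.88, 8.11 and 8.49 in CDAHFD RIC. Its groups did not overlap either, and the mean was 1.63-fold lower (difference -0.63, SE 0.139, adjusted p = 0.0036). Mrpl34, one of the shortest ribosomal proteins, measured 37.8, 30.2, 34.1, 32.9 and 36.2 FPKM in CDAHFD sham and 19.2, 24.4, 23.7 and 23 in CDAHFD RIC. As deposited, the conditioned samples fell within the NC sham range of 18.6 to 28.8 (difference from CDAHFD sham -0.58, adjusted p = 0.00275). After median-ratio scaling they lay below all NC sham samples.

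Mrpl57, whose promoter is printed above, fell from 8.54 ± 1.22 to 5.47 ± 0.646 FPKM (difference -0.56, adjusted p = 0.00254, and -0.45 after scaling). Mrpl18 fell from 46.8 ± 4.16 to 34 ± 2.99 FPKM (difference -0.45, adjusted p = 0.00585). Mrpl22, which lines the exit tunnel, fell from 26.2 ± 2.14 to 19.1 ± 1.45 FPKM (difference -0.44, adjusted p = 0.00547). Under every alternative listed in the processing section in which they were tested, 12 members were called lower. The share of all genes that did so was not counted, so the number does not tell the members apart from other genes. The 12 members were Mrpl4, Mrpl18, Mrpl21, Mrpl22, Mrpl33, Mrpl34, Mrpl49, Mrpl51, Mrpl57, Mrps6, Mrps7 and Mrps30.

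The other 15 were Mrpl10, Mrpl20, Mrpl24, Mrpl30, Mrpl32, Mrpl36, Mrpl52, Mrpl54, Mrps2, Mrps11, Mrps14, Mrps15, Mrps17, Mrps26 and Mrps34, and their differences ran from -0.45 for Mrpl32 to -0.20 for Mrpl30. Mrpl54 measured 31.7, 34.7, 30.6 and 33.8 FPKM in CDAHFD RIC, below its CDAHFD sham values of 37 to 55.6. It passed as deposited (-0.42, adjusted p = 0.0162) and not after median-ratio scaling (-0.32, adjusted p = 0.0639). Mrpl10, which anchors the stalk, fell from 24.3 ± 3.23 to 18.4 ± 2.4 FPKM (-0.38, adjusted p = 0.015), and missed the threshold without CDAHFD RIC 3 (adjusted p = 0.0586). Mrpl52 missed it without CDAHFD RIC 1 (0.0581), as did Mrps2 (0.0552), and Mrps15 without CDAHFD RIC 3 (0.0617). Mrpl24 missed it without CDAHFD sham 3 or 4 (up to 0.0569), and Mrps34 without CDAHFD sham 1 or 3 or CDAHFD RIC 1 or 2 (up to 0.0749). Mrpl20 missed it without CDAHFD sham 1, 3 or 4 or CDAHFD RIC 1 (up to 0.103). Mrps14 missed it without CDAHFD sham 1, 3 or 4 or CDAHFD RIC 1, 2 or 3 (up to 0.081), and Mrps17 without CDAHFD sham 1 or 3 or CDAHFD RIC 1, 2 or 3 (up to 0.0902). Mrpl30 was the least stable, and missed it on leaving out any of 15 of the 19 samples (up to 0.12).

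The remaining 51 members did not pass, and some were nearly level. Mrpl12 measured 77.1, 84.6, 78.5, 80.7 and 84.5 FPKM in CDAHFD sham and 73.2, 82.7, 89 and 79.6 in CDAHFD RIC. The conditioned values spread around the sham values on both sides, with a difference of 0.00 (SE 0.0762, adjusted p = 0.987). Mrpl45 measured 15.1, 13.6, 14.2 and 17.4 FPKM in CDAHFD RIC, overlapping its CDAHFD sham values of 11.9 to 16.2 (difference 0.11, SE 0.0948, adjusted p = 0.396). Mrps21 had a difference of -0.56 with a wide error (SE 0.236, adjusted p = 0.0821). Mrps12, which forms part of the decoding center, measured 12.7 ± 2.35 and 12.5 ± 1.84 FPKM (difference -0.01, adjusted p = 0.947).

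**Figure D3:**
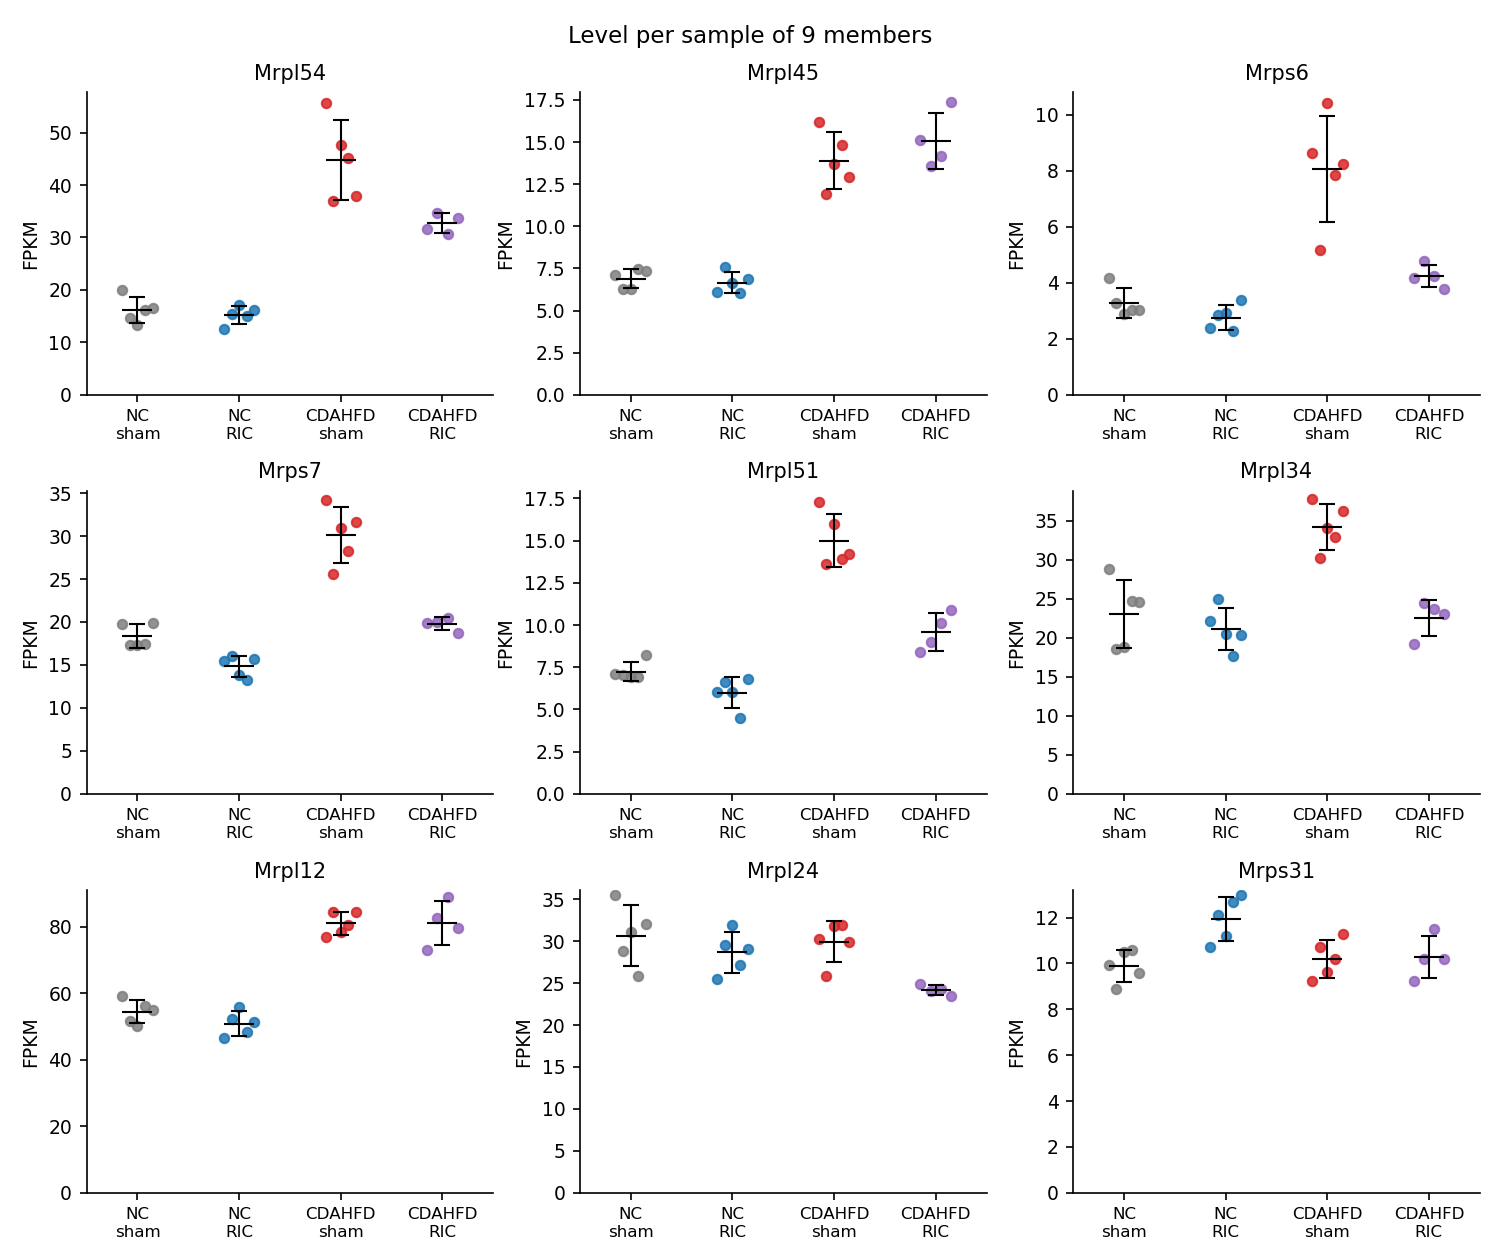
FPKM per sample of 9 members in the 4 groups; points are samples, bars mean and SD, and each axis starts at 0. Mrps7, Mrps6, Mrpl51 and Mrpl34 are lower in CDAHFD RIC than in CDAHFD sham in every sample, while Mrpl12 and Mrpl45 overlap between these groups.

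The share of members called lower after conditioning was read against gene length, because the difference moved with exonic length over all tested genes with a length (Spearman 0.28, n = 10339) and over the members (Spearman 0.27, n = 78). Among genes under 1000 bases 3 of 9 members fell (33.3%), beside 29.5% of all genes of that length. From 1000 to 2000 bases 8 of 22 members fell (36.4%), beside 26.1%. At 2000 bases and over 16 of 47 members fell (34.0%), beside 15.9%. The diet difference in sham mice also moved with exonic length (Spearman -0.41 over the members and -0.15 over all tested genes with a length). The part of length in either result was not tested.

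**Figure D4:**
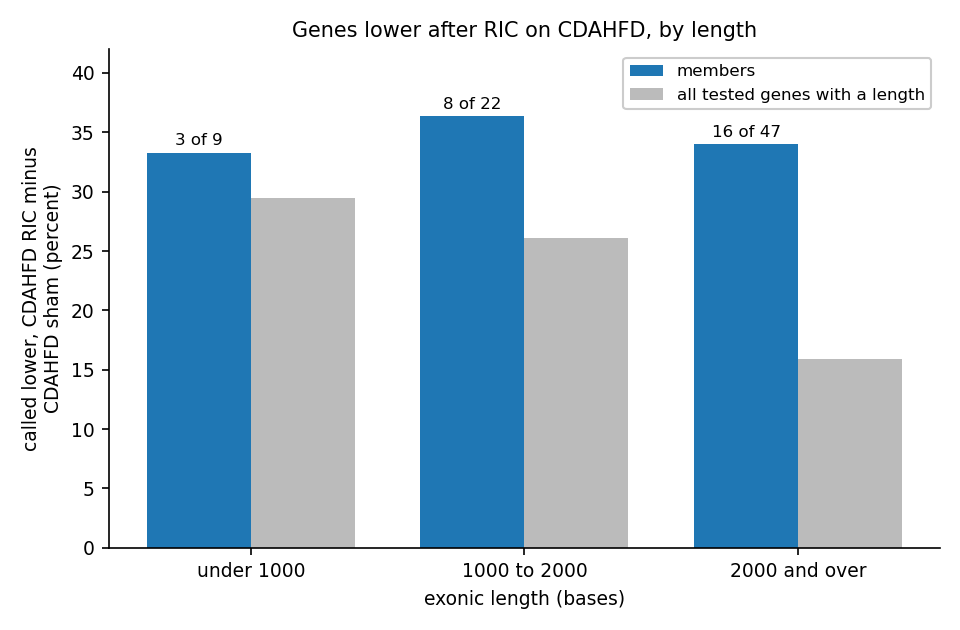
Share of genes called lower in CDAHFD RIC against CDAHFD sham by annotated exonic length, for members (blue, with counts) and all tested genes with a length (grey). The member share stays between 33.3% and 36.4%, while that of all genes runs from 29.5% in the shortest class to 15.9% in the longest.

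In chow-fed mice 1 of 78 members was called lower with conditioning (1.28%), close to the 0.86% of all genes. Mrpl53 measured 17.6, 7.88, 9.2, 10.9 and 8.57 FPKM in NC sham and 4.35, 5.73, 5.47, 5.81 and 6.94 in NC RIC. All conditioned values were lower, and NC sham 1 was far above the rest of its group. The difference was -0.79 (SE 0.18, adjusted p = 0.0445), and the call ended without any one of 14 of the 19 samples (adjusted p up to 0.0981), remaining only without NC RIC 5, CDAHFD sham 1 or 2, or CDAHFD RIC 1 or 3. Most exonic bases of Mrpl53 (88%) are shared with a same-strand gene model, Gm42688, so its reads may belong to either. This 1 member called lower and 0 called higher stand beside 0.86% and 0.321% of all genes. At an unadjusted p under 0.05, 13 members were lower and 3 higher, with no share of all genes counted. After median-ratio scaling 1 was again called lower and 0 higher, beside 0.454% and 0.747%. The summed level was 719 ± 53.8 FPKM in NC RIC (645 to 785), overlapping NC sham. The lowest sum was that of NC RIC 4, which was low over all tested genes (median log2(FPKM + 1) 1.95, others 2.04 to 2.10). The median member difference was -0.09, beside -0.06 for all genes.

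In chow-fed mice 7 members were lower and 1 higher with conditioning without overlap of the groups, beside 3.75% and 0.993% of all genes. The next 4 members by p in chow-fed mice did not pass. Mrps7 measured 19.8, 17.3, 17.3, 17.4 and 19.9 FPKM in NC sham and 15.4, 16, 13.8, 13.3 and 15.7 in NC RIC. These groups did not overlap (difference -0.29, SE 0.0806, adjusted p = 0.082). Mrps34, Mrps18a and Mrps10 had differences of -0.43, -0.30 and -0.22 (adjusted p = 0.0964, 0.104 and 0.116).

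Between conditioned mice the diet difference was again mostly upward as deposited. Of 78 members 62 were higher and 2 lower in CDAHFD RIC than in NC RIC, beside 63.6% and 6.68% of all genes, but only 6 were higher and 19 lower after median-ratio scaling, beside 25.3% and 24.6%. The median member difference was 0.37 as deposited, below the 0.42 of all genes. In 49 members all CDAHFD RIC values were above all NC RIC values and in 1, Mrpl24, below, beside 53.3% and 4.63%. Mrpl45 led with NC RIC values of 6.08, 7.57, 6.65, 6.04 and 6.9 FPKM against the CDAHFD RIC values of 13.6 to 17.4 given above, without overlap. Its difference was 1.07 (SE 0.0948, adjusted p = 1.36e-08), and 0.56 after scaling (adjusted p = 7.27e-05). Mrpl54 (1.06), Mrpl52 (0.97), Mrpl23 (0.80), Mrps18a (0.79) and Mrpl16 (0.78) also rose under every alternative in which they were tested. The share of all genes that did so was not counted.

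The 2 members called lower between conditioned groups were Mrpl24 and Mrps31. Mrpl24 measured 25.5, 29.6, 31.9, 27.2 and 29.1 FPKM in NC RIC and 24.9, 24, 24.3 and 23.5 in CDAHFD RIC. No conditioned CDAHFD sample reached the chow range (difference -0.23, SE 0.0902, adjusted p = 0.0288), but the call ended without NC RIC 2 or 3 or CDAHFD RIC 2 or 4 (adjusted p up to 0.0755). Mrps31 measured 10.7, 12.1, 11.2, 12.7 and 13 FPKM in NC RIC and 9.23, 10.2, 11.5 and 10.2 in CDAHFD RIC, with some overlap. Its difference was -0.20 (SE 0.0824, adjusted p = 0.0399), and the call ended without NC RIC 2, 4 or 5 or CDAHFD RIC 1, 2 or 4 (adjusted p up to 0.133). Of the 62 members called higher 13 missed the threshold on leaving out 1 NC RIC or CDAHFD RIC sample, with adjusted p up to 0.166 for Mrpl4 without 1 of NC RIC 3 or 4 or CDAHFD RIC 2 or 4. The others were Mrpl18, Mrpl20, Mrpl21, Mrpl22, Mrpl42, Mrpl57, Mrps5, Mrps10, Mrps24, Mrps34, Mrps35 and Mrps36, and without CDAHFD RIC 4 all of the 13 except Mrpl18 and Mrpl42 missed it.

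The test of whether the effect of conditioning differed between the diets gave 1 member. For Mrps36, NC sham values were 3.24, 2.8, 3.86, 2.3 and 3.25 FPKM and NC RIC values 4.29, 4.56, 4.22, 3.13 and 4.16. CDAHFD sham values were 7.7, 5.68, 6.98, 6.7 and 6.18 and CDAHFD RIC values 5.47, 5.19, 4.13 and 6.25. On chow the mean was higher with conditioning (difference 0.31, adjusted p = 0.173) and on CDAHFD it was lower (-0.29, adjusted p = 0.0761), and neither passed by itself. The difference of these differences was -0.61 (SE 0.166, adjusted p = 0.0348), and it missed the threshold on leaving out any of 10 samples, namely NC sham 2 or 4, NC RIC 1, 2, 3 or 5, CDAHFD sham 1 or 3, or CDAHFD RIC 2 or 3 (adjusted p up to 0.0731). This 1 lower and 0 higher stand beside 3.13% and 3.59% of all genes. At an unadjusted p under 0.05, 19 members were lower and 0 higher, with no share of all genes counted. After median-ratio scaling 2 were lower, Mrps36 and Mrpl4, and 0 higher, beside 2.81% and 3.83%. Mrpl57 (-0.52, adjusted p = 0.0566), Mrps30 (-0.30, 0.0594), Mrpl4 (-0.47, 0.0667) and Mrps6 (-0.58, 0.073) came next and did not pass. The falls on CDAHFD are therefore not shown to differ from the effect on chow for these members. The count rose to 6 without CDAHFD sham samples 2 and 5, and leaving out 1 sample at a time it ran from 0 to 9, with 9 without NC RIC 4, 5 without CDAHFD sham 2, 4 without NC sham 1 and 3 without CDAHFD RIC 4. As given above, NC RIC 4 was low over all tested genes and not only in the members.

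By subunit, on the diet, where 63.9% of all tested genes were called higher as deposited, 21 of 26 small-subunit and 46 of 51 large-subunit members were called higher as deposited, but 3 higher and 7 lower, and 14 higher and 8 lower, after median-ratio scaling. After conditioning on CDAHFD 9 of 26 and 18 of 51 were called lower as deposited, beside 18.6% of all genes, and 5 and 12 after scaling, beside 10.1%. The summed FPKM of the small subunit over that of the large subunit was 0.408 ± 0.0166 in NC sham and 0.4 ± 0.0179 in NC RIC, and on CDAHFD 0.404 ± 0.00915 in sham and 0.395 ± 0.0205 in conditioned mice. Of 45 members with bacterial relatives 40 rose on the diet as deposited (8 higher and 9 lower after scaling), and of 32 mitochondria-specific members 27 rose (9 higher and 6 lower after scaling). After conditioning 19 of 45 and 8 of 32 fell as deposited, and 12 and 5 after scaling, beside the same shares of all genes.

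The Mrps18 family shares a bacterial ancestor, and its members occupy different places in the ribosome, Mrps18a in the large subunit. Mrps18a, Mrps18b and Mrps18c had diet differences of 0.53, 0.87 and 0.42 as deposited, and of 0.07, 0.35 and -0.14 after scaling, of which only that of Mrps18b passed. None of the 3 passed after conditioning on CDAHFD (-0.03, -0.07 and -0.09). Among the 6 proteins around the exit site 5 rose on the diet as deposited, and 2 were higher and 1 lower after scaling. With conditioning 2 of these 6 fell as deposited and 1 after scaling, beside 18.6% and 10.1% of all genes. Among members known from human respiratory chain disease, Mrps16, Mrpl44, Mrps34 and Mrpl3 had diet differences of 0.61, 0.53, 0.35 and 0.30, which passed as deposited and not after scaling, while Mrps22 did not pass as deposited. With conditioning on CDAHFD Mrps16, Mrpl44, Mrpl3 and Mrps22 did not pass, while Mrps34 fell as deposited, beside 18.6% of all genes. Mrps2, Mrps7 and Mrps14, also known from such disease, fell as deposited. They were picked from the called members, so they say nothing about the share of disease genes that fell. The difference of Mrps34 was -0.42 (adjusted p = 0.0253), and most of its exonic bases (63.4%) overlap Mapk8ip3 on the other strand. Mrpl58, a peptidyl-tRNA hydrolase built into the large subunit, measured 2.53 ± 0.574 and 4.27 ± 0.288 FPKM on the 2 diets (difference 0.59, adjusted p = 2.25e-05, and 0.14 after scaling).

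Genes that act with the members were compared by counts. On the diet 63.9% of all tested genes were called higher and 10.3% lower, and 30.5% in each direction after scaling. With conditioning on CDAHFD 8.72% were higher and 18.6% lower, and 12.7% and 10.1% after scaling. These shares apply to all lists in this paragraph and the next. Of 5 mitochondrial ribosomal subunits with other symbols, 3 were higher on the diet as deposited, 0 were higher and 2 lower after scaling, and 1 fell with conditioning. That gene was Gadd45gip1, at 6.34 ± 0.749 FPKM in NC sham, 11 ± 1.83 in CDAHFD sham and 6.49 ± 0.586 in CDAHFD RIC (conditioning difference -0.66, adjusted p = 6.64e-04). Of 22 assembly factors 15 were higher and 1 lower on the diet (3 and 8 after scaling), and with conditioning 1 was higher and 4 lower (3 and 3 after scaling). Of 13 translation factors 7 were higher and 2 lower on the diet (3 and 7 after scaling), and 2 were higher and 1 lower with conditioning (2 and 0 after scaling). Tufm is the elongation factor that delivers aminoacyl-tRNA to the ribosome, and Tsfm recharges Tufm by nucleotide exchange. Tsfm and Tufm rose from 1.53 ± 0.14 to 4.06 ± 0.315 and from 9.78 ± 1.21 to 19.1 ± 2.57 FPKM on the diet, and both passed on either scale. Of 12 mitochondrial aminoacyl-tRNA synthetases 10 were higher and 0 lower on the diet (1 and 1 after scaling), and 0 were higher and 3 lower with conditioning (0 and 1 after scaling).

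The cytosolic ribosomal proteins, which form the ribosome outside mitochondria, had 80 of 80 genes higher on the diet with a median of 0.83 as deposited, and 37 higher and 1 lower after scaling. With conditioning 42 of 80 were lower, with a median of -0.30, and 10 after scaling. The nuclear respiratory chain subunits had 43 of 74 higher and 2 lower on the diet (median 0.30), but 3 higher and 40 lower after scaling. With conditioning 27 were lower and 4 higher as deposited, and 9 and 6 after scaling. The 13 mitochondrially encoded messages, which the mitochondrial ribosome translates, had 3 higher and 6 lower on the diet with a median of -0.18, and 1 higher and 11 lower with a median of -0.77 after scaling. With conditioning 5 were lower and 0 higher as deposited, and 1 and 0 after scaling. In the diet comparison the member median of 0.58 thus stood between those of the cytosolic ribosomal proteins and the respiratory chain. These medians were not tested against each other.

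**Figure D5:**
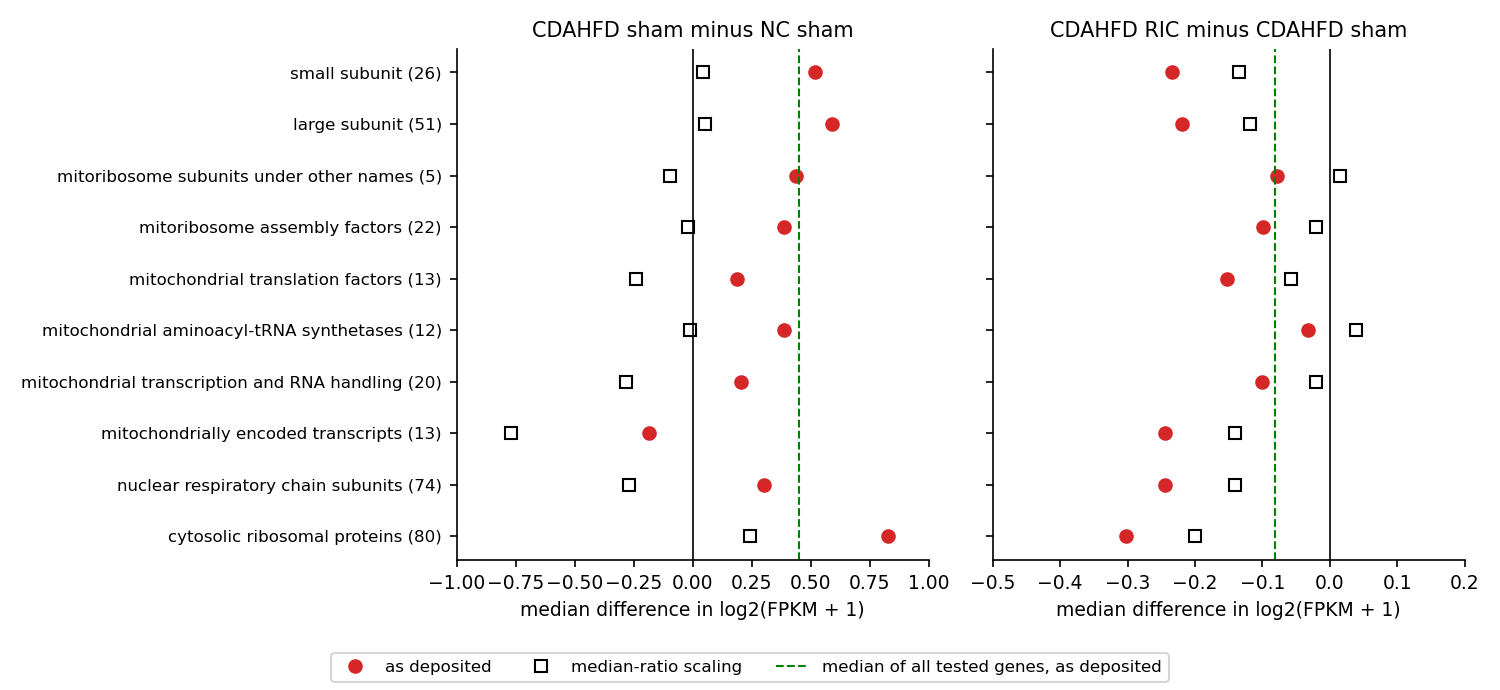
Median difference in log2(FPKM + 1) of the members by subunit and of related gene lists (number of tested genes in parentheses), for the diet in sham mice (left) and conditioning on CDAHFD (right); circles are deposited values, squares median-ratio scaling, and the dashed line is the median of all tested genes. On the diet the deposited medians run from -0.18 for mitochondrially encoded transcripts to 0.83 for cytosolic ribosomal proteins; the lists are not tested against each other.

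Marker genes of other cell types moved with the diet, on which 63.9% of all tested genes were called higher and 10.3% lower as deposited. All 7 macrophage and Kupffer cell markers were called higher in CDAHFD sham, their summed level being 34.8 to 45.9 FPKM in NC sham and 249 to 314 in CDAHFD sham, and all 6 stellate cell markers were higher, at 17.9 to 32 and 106 to 202. Cholangiocyte markers summed to 16.5 to 35.1 FPKM in NC sham and 143 to 479 in CDAHFD sham, with 3 of 3 tested markers higher. Of 6 hepatocyte markers 5 were lower on the diet. With conditioning on CDAHFD 8.72% of all tested genes were called higher and 18.6% lower as deposited. In CDAHFD RIC the macrophage sum was 295 to 536 FPKM, with 2 of 7 markers higher than in CDAHFD sham. The stellate cell sum was 85.7 to 142, with 3 of 6 lower. The part of these cell types in the member differences was not tested.

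Across the 19 samples most members varied together in the deposited values, in which the median of all tested genes also shifted with the diet. No such correlation is given for other genes or after median-ratio scaling. The values are therefore not shown to be particular to the members. The correlation of a member with the mean of the other members had a median of 0.88, and 55 members were above 0.80. Samples of the same group share diet and procedure, and once group means were taken out the median was 0.46. Mrpl9, Mrpl24, Mrpl39 and Mrps31 had correlations under 0 before that step. They belong to the 10 members that did not pass on the diet as deposited.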

How the data were processed

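Total RNA from 19 liver samples in 4 groups, taken from the sample titles, was sequenced after Trizol extraction and library preparation with a VAHTS kit, per the labels' protocols. The authors deposited 1 table of FPKM with 1 column per sample. FastQC 0.11.9, Trimmomatic 0.38, HISAT2 2.2.1, HTSeq 0.13.5, R 3.4.1, DESeq2 1.18.1 and mm10 are listed per the submitters' processing notes, which do not say what each was used for. The program behind the FPKM, its gene models and its strand setting are not given in the sources used here.

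Of 55335 entries, 3225 without a gene name (0.123% to 0.204% of the FPKM) were left out. Because FPKM are not counts, values were analysed as log2(FPKM + 1), with a pseudocount of 1, for genes averaging 1 FPKM or more, which understates changes of low genes. limma 3.58.1 in R 4.3.3 (eBayes with a trend) fitted the 4 group means jointly to the 19 samples, leaving 15 residual degrees of freedom. Tests were two-sided, and p-values were adjusted by Benjamini-Hochberg across 10577 genes. A gene was called, or passed, at an adjusted p under 0.05. Alternatives were a pseudocount of 0.1, no filter, a filter at 5 FPKM, a common sum, median-ratio scaling, quantile normalization, array weights, a replicate block, only the groups compared, CDAHFD sham samples 2 and 5 left out, and each sample left out. Where members passed under every alternative, this list is meant. It does not include median-ratio scaling combined with leaving out CDAHFD sham samples 2 and 5, which was chosen after the data were seen. Counts by unadjusted p and under alternatives other than median-ratio scaling are given for the members without the share of all genes. So are the counts of members that passed under every alternative. None of those counts tell the members apart from other genes. The fit was checked on simulated data.

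Depth was estimated from the value that 1 read takes in genes with 1 exon. Only 21.2% to 23.6% of low values lay within 2% of whole reads, so reads were not recovered. The estimated depth and read numbers are therefore not borne out by this check. Gene positions, lengths and overlaps came from GENCODE vM21 on GRCm38, the assembly of mm10, matched by symbol, and promoters from RefSeq. Tables and plots used python 3.11.15, pandas 2.3.3 and matplotlib 3.10.9.

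The members, the related lists and the tests were chosen with earlier results of these data known. The naming rule took the 8 largest and the 8 smallest member differences of each diet comparison, every member called with conditioning or in the interaction (or the 5 smallest p where fewer than 5 were called), the 5 highest and the 5 lowest levels and a set of 20 members. Members outside it (Mrpl13, Mrpl40, Mrpl42, Mrpl43, Mrpl47, Mrps5, Mrps9 and Mrps27) were named after their values were seen.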

Additional observations from a re-analysis of the deposited data

Results flagged for a closer look

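In 56 named members 224 groups were examined for 1 sample far from the rest of its group, and 13 were found, where chance gives about 1 in 20. In NC sham, sample 1 was high for Mrpl18 (39.2 FPKM, others 26.8 to 30.4), Mrpl57 (5.19, others 3.96 to 4.08) and Mrps6 (4.18, others 2.89 to 3.27). NC sham 5 was high for Mrpl15 (5.53, others 3.95 to 4.4) and Mrpl51 (8.25, others 6.9 to 7.1), and NC sham 2 was low for Mrps35 (2.2, others 2.32 to 2.37). Over all tested genes the median log2(FPKM + 1) was 2.16 in NC sham 1, 2.15 in NC sham 5 and 2.07 to 2.10 in the other NC sham samples. In NC RIC, sample 4 was low for Mrpl4 (3.37, others 4.29 to 4.63), Mrpl16 (5.03, others 6.25 to 6.62), Mrpl49 (4.84, others 7.92 to 8.81) and Mrps36 (3.13, others 4.16 to 4.56), and NC RIC 2 was low for Mrps34 (4.61, others 5.65 to 5.94). NC RIC 4 was also low over all tested genes, with a median log2(FPKM + 1) of 1.95 (others 2.04 to 2.10). After median-ratio scaling its mean log2 level of the members was 3.25, within the 3.17 to 3.31 of the other NC RIC samples. CDAHFD sham 1 was high for Mrpl10 (30.0, others 22.3 to 23.8), and CDAHFD RIC 4 was high for Mrps12 (15.2, others 11.4 to 11.7). The effect of conditioning on Mrps36 differed between the diets by -0.61 on the log2 scale, the 1 interaction among members that passed.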

How the results depend on the processing

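The direction of the diet difference depended on the scaling, and that of conditioning on CDAHFD did not for the members it called. For CDAHFD sham minus NC sham, median-ratio scaling gave 18 members higher and 15 lower, quantile normalization 27 and 16, and leaving out CDAHFD sham samples 2 and 5 gave 1 lower. Both steps together, an alternative chosen after the data were seen, gave 27 higher and 14 lower. The member median minus that of all genes was 0.13, and 0.52 without a filter and 0.22 with a filter at 5 FPKM. For conditioning on CDAHFD, a common sum gave 13 lower, median-ratio scaling 17, and the added alternative 2 higher. In chow-fed mice the count lower was 0 without a filter, with quantile normalization, with only the groups compared and in the added alternative, while array weights gave 4 lower and 1 higher. Between conditioned groups, median-ratio scaling gave 6 higher and 19 lower, quantile normalization 9 and 19, and the added alternative 6 and 19. The lower count was 0 with a common sum and 1 with only the groups compared, and the median minus that of all genes was 0.30 without a filter. The interaction gave 0 lower without a filter, at 5 FPKM or with a common sum, 2 with median-ratio scaling, 5 with quantile normalization, 5 with array weights, 6 without CDAHFD sham samples 2 and 5, and 7 in the added alternative. Leaving out 1 sample gave 66 to 69 higher on the diet, 21 to 34 lower with conditioning on CDAHFD, 0 to 1 lower with conditioning on chow, 52 to 63 higher and 0 to 2 lower between conditioned groups, and 0 to 9 lower in the interaction. Only the groups compared gives no interaction, and members under 5 FPKM have no value at the stricter filter.

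Over all 78 members the difference changed sign in 30 with median-ratio scaling and in 26 with quantile normalization for the diet in sham mice, in 44 and 46 between conditioned groups, and in 13 and 11 for conditioning on CDAHFD, none of them among its 27 called members. Among the members that the naming rule takes in sham mice, median-ratio scaling changed the sign of Mrpl3 (-0.13), Mrpl12 (-0.011), Mrpl15 (-0.31), Mrpl17 (-0.064), Mrpl39 (-0.43), Mrps10 (-0.33), Mrps12 (-0.18), Mrps18c (-0.14), Mrps22 (-0.32), Mrps24 (-0.45), Mrps31 (-0.49) and Mrps34 (-0.18). With quantile normalization these were Mrpl3 (-0.24), Mrpl15 (-0.36), Mrpl17 (-0.094), Mrpl39 (-0.34), Mrps10 (-0.41), Mrps12 (-0.094), Mrps18a (-0.011), Mrps22 (-0.33), Mrps24 (-0.31), Mrps31 (-0.42) and Mrps34 (-0.13). Among those it takes between conditioned groups, that of Mrpl34 changed (-0.45 and -0.32). The cause was not tested beyond the shift of all genes given in the report.

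Same-numbered samples did not pair: the correlations of their deviations ran from -0.17 to 0.18 over 27 pairs, with 6 above 0.1. A replicate block gave 68 members higher on the diet, 25 lower with conditioning on CDAHFD, 0 lower with conditioning on chow, 62 higher and 1 lower between conditioned groups, and 0 in the interaction.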

Other observations

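Of 5 tested regulators of mitochondrial biogenesis, 2 were higher and 1 lower after conditioning on CDAHFD, and of 20 genes of mitochondrial transcription and RNA handling 2 were higher and 4 lower (2 and 1 in both lists after median-ratio scaling). Of all tested genes 8.72% were higher and 18.6% lower as deposited, and 12.7% and 10.1% after scaling. Ppargc1a, a coactivator of mitochondrial biogenesis, measured 2.69 ± 0.634 FPKM in CDAHFD sham and 7.09 ± 2.52 in CDAHFD RIC (difference 1.09, adjusted p = 0.00173). Gabpa, the DNA-binding part of GABP, fell from 8.59 ± 0.494 FPKM in NC sham to 6.59 ± 0.73 in CDAHFD sham (difference -0.34, adjusted p = 1.92e-04), and measured 9.11 ± 0.257 in CDAHFD RIC (difference from CDAHFD sham 0.42, adjusted p = 6.99e-04). Tfam, which packages mitochondrial DNA and starts its transcription, rose from 10.6 ± 1.3 to 13 ± 0.8 FPKM with conditioning on CDAHFD (difference 0.28, adjusted p = 0.0232). Tfb2m, a mitochondrial transcription factor, rose from 10.6 ± 0.85 to 14.5 ± 0.644 FPKM (difference 0.42, adjusted p = 0.00512). Pprc1, a relative of Ppargc1a, fell from 1.91 ± 0.277 to 1.13 ± 0.242 FPKM (difference -0.45, adjusted p = 0.00479), and Fastkd5, Ptcd1, Slirp and Twnk fell by 0.47, 0.23, 0.51 and 0.27. The rises of Ppargc1a, Gabpa and Tfam also passed after median-ratio scaling (1.12, 0.50 and 0.37). Esrra rose on the diet as deposited, from 5.23 ± 0.374 to 9.24 ± 1.26 FPKM (difference 0.71, adjusted p = 2.06e-05), and did not pass after scaling (0.20, adjusted p = 0.149). Tfb2m, Pprc1, Fastkd5, Ptcd1, Slirp and Twnk were named after their values were seen. Nrf1 was below the level tested, at 0.346 to 0.477 FPKM by group mean.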
